A study of Homo sapiens with 16 samples.

Results

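The genes described here are 36 genes of homologous recombination, the Fanconi anaemia pathway, mismatch recognition and the DNA damage checkpoint. They were taken by symbol from a table of read counts for 23669 genes. All 36 were found, and all 36 were among the 15520 genes that passed a filter on low counts, with at least 52 counts in every library. Poly(A) RNA had been sequenced from HCT116, an established human colorectal carcinoma cell line, in 4 derivatives that were each grown under normal conditions (normoxia, 21% oxygen) or held at 1% oxygen over 24 h (hypoxia). The shNT cells stably carried a non-targeting shRNA, a short hairpin RNA used for knockdown. The shTIP60 cells carried an shRNA against TIP60, the lysine acetyltransferase encoded by KAT5, and in shCDK8 cells the shRNA was directed at the Mediator kinase CDK8. The line called HIF1A-null here is labelled HIF1A-/-, and the product of HIF1A is the subunit of the transcription factor HIF1 that is degraded when oxygen is plentiful. Each of the 8 groups of line and oxygen had 2 libraries, labelled as independent biological replicates and called A and B here after the lower and higher series of library numbers. Each target was altered in a single line, so loss of the target cannot be told apart from effects of the clone, the vector or off-target silencing.

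Homologous recombination repairs a DNA break that severs both strands by copying the sister chromatid, and it is used mainly in S and G2 phase. The broken ends are resected, and BRCA1, PALB2 and BRCA2 prepare the exposed strand for pairing with an intact copy, with the help of a family of paralogs. The Fanconi proteins unhook crosslinks that stall replication forks, and ATR and CHEK1 hold the cell cycle while the forks are rescued. Many of these genes are transcribed as cells enter S phase, under the E2F transcription factors.

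Levels are given in CPM, a gene's share of the counts of its library scaled to a common total after trimmed mean of M-values scaling. Changes are log2 fold changes ± SE with p-values from edgeR's quasi-likelihood test, adjusted by the Benjamini-Hochberg method over all 15520 genes, and a gene was called at an adjusted p under 0.05. The libraries held 26620086 to 39401494 counts. Reads of the knocked-down genes were lower in their lines: CDK8 was at 5.77 and 6.80 CPM in shCDK8 normoxia against 27.3 and 24.8 CPM in shNT, and KAT5 at 20.2 and 19.1 CPM in shTIP60 normoxia against 84.8 and 86.7 CPM. HIF1A was at 13.02 and 14.1 CPM in HIF1A-null normoxia against 107 and 108 CPM in shNT. In hypoxia, however, reads assigned to HIF1A stood at 40.1 and 57.6 CPM in the line labelled HIF1A-null against 61.2 and 70.5 CPM in shNT, and a count for a whole gene does not tell which exons the reads came from. HIF1A rose by 1.85 ± 0.15 with hypoxia in that line. In hypoxia it was still called lower there than in shNT (-0.43 ± 0.15, adjusted p = 0.0283). Loss of HIF1A at 1% oxygen is therefore not shown by these counts, and they do not tell whether the reads come from an intact gene. Of 9 markers of colorectal epithelium, EPCAM, CDH1, KRT8, KRT18, KRT19 and CDX2 were at 6.27 CPM or more in every library. CDX1 was at 3 counts or fewer throughout, and VIL1 and LGALS4 did not pass 0.34 and 0.80 CPM. The summed epithelial list ran from 3975 to 7065 CPM in the 8 normoxia and from 6896 to 10860 CPM in the 8 hypoxia libraries. Of markers of other cell types, 2 of 5 leukocyte (PTPRC, CD3E), 2 of 5 fibroblast (COL1A2, DCN) and 1 of 4 endothelial genes (CDH5) were at 3 counts or fewer in every library. The summed leukocyte list nevertheless ran from 7.18 to 24.8 CPM in normoxia and from 30.0 to 117 CPM in hypoxia, nearly all of it from CD68, and the summed fibroblast list from 21.7 to 40.7 and from 43.6 to 82.7 CPM, nearly all of it from COL1A1. The part of these reads in the results below was not tested. In bulk RNA, fewer cells in a state and less RNA per cell cannot be told apart.

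The HIF1A-null normoxia libraries stood apart from each other: 29 of the 36 repair genes were lower in library B than in library A, and their summed level was 1381 CPM in library B and 1905 CPM in library A. The median absolute log2 difference between libraries A and B over the 36 genes was 0.33 in that group and 0.31 in HIF1A-null hypoxia, against 0.11 to 0.21 in the other 6 groups. Counts of called genes that involve HIF1A-null cells are therefore also given as ranges over fits without single libraries. For single genes this is given only for some of the calls.

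In shNT cells, hypoxia lowered most of the repair genes. Of the 36, 27 fell, 1 rose (RAD51B) and 8 had no call, so 28 were called, against 40.7% of all genes tested (20% of all genes were called lower). Their median log2 change was -0.80, against -0.00067 over all genes. The normoxia and hypoxia libraries did not overlap in 34 of the 36 genes, the 28 called genes among them, against 69.8% of all genes. The deepest losses were in XRCC3 at -1.86, XRCC2 at -1.76, EXO1 at -1.49 and FANCE at -1.44 on the log2 scale. The summed level of the 36 genes went from 1822 to 1945 CPM in normoxia to 1126 to 1229 CPM in hypoxia. Over the same libraries, 27 genes of DNA replication and S phase, such as the MCM helicase and cyclin E, went from 4575 to 5262 CPM to 2190 to 2642 CPM in sum, with 23 of 27 called lower and a median of -1.37. Of 20 mitosis genes, 3 were called lower and 1 higher, with a median of -0.24. The part of cell cycle distribution in the losses of repair genes was not tested. Calls for RAD51B, FANCB, FANCG, FANCI, CHEK2 and TOPBP1 ended without 1 or more single libraries, with adjusted p up to 0.288, 0.0771, 0.166, 0.196, 0.0954 and 0.0996 in that order.

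**Figure D1:**
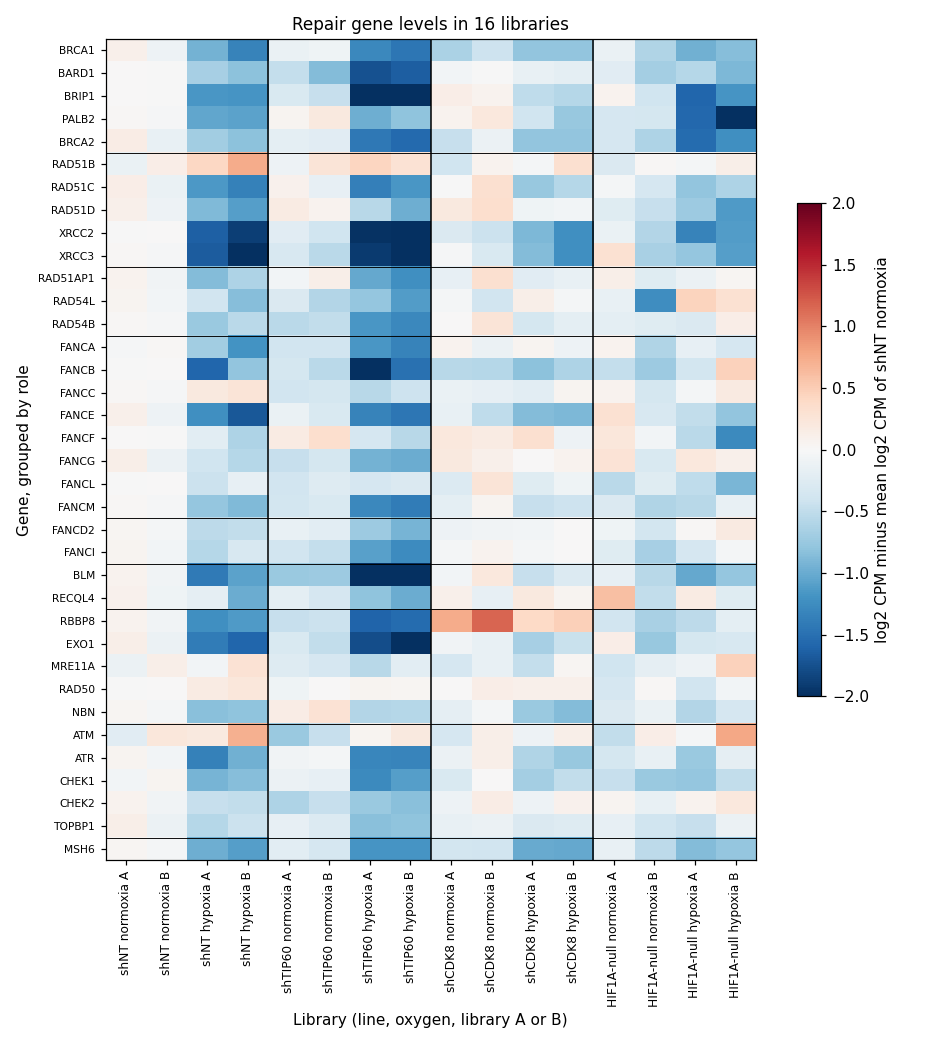
Level of each of the 36 repair genes (vertical axis, grouped by role) in each of the 16 libraries (horizontal axis), as log2 CPM minus the mean log2 CPM of the shNT normoxia libraries. Blue marks lower and red higher levels: the shNT and shTIP60 hypoxia columns are blue for most genes, the shCDK8 and HIF1A-null hypoxia columns for fewer, and RBBP8 is red in all 4 shCDK8 libraries.

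Promoters of these genes are shown because 27 of the 36 fell together in shNT. RefSeq windows (GRCh38.p14) from 250 bases before to 50 bases after a transcription start were matched by symbol for 32 of the 36 genes and for 10572 genes tested. Each was searched on both strands for the E2F strings TTTCCCGC, TTTGGCGC, TTTCGCGC and TTTGCCGC, none of which contains another. At least 1 of these strings was found for 7 of the 32 genes (21.9%), for 6.28% of the genes tested and for 3.99% of all 27305 genes with a window. The 7 genes were XRCC2, EXO1, MSH6, FANCD2, TOPBP1, FANCA and FANCC. The first 6 fell in shNT hypoxia and FANCC had no call, beside 27 of all 36 genes that fell. A link between the strings and the losses was not tested. The CHR strings TTTGAA and TTCGAA were found for 9.38% of the repair genes and 15.3% of the genes tested, the CCAAT box for 46.9% and 43%, and the cores ACGTG and GCGTG of the hypoxia response element for 78.1% and 68.6%. The windows below hold 90 bases before the annotated start and 30 bases from it, 5′ to 3′ on the strand of the gene, with the E2F string in capitals on whichever strand it lies. They lie at chr7:152676112-152676231 (minus strand), chr1:241848114-241848233 (plus strand), chr2:47783055-47783174 (plus strand) and chr9:95317680-95317799 (minus strand). XRCC2, EXO1 and MSH6 are shown as the genes with an E2F string that fell most, and FANCC as the gene with such a string that had no call with hypoxia in any line.
XRCC2: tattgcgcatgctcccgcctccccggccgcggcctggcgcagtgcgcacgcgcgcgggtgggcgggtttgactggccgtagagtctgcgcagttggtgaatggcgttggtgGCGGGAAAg
EXO1: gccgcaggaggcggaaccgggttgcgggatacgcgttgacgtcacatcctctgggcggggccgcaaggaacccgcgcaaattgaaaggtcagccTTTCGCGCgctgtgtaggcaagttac
MSH6: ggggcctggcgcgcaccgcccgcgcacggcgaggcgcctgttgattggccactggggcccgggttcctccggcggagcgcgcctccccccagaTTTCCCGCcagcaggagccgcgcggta
FANCC: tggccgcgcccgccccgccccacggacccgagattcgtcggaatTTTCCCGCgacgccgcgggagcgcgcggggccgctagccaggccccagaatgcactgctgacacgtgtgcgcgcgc
In XRCC2, EXO1 and MSH6 the string began at positions 22, 5 and 4 of the transcript, and in FANCC the string shown began at position -46. The wider FANCC window also held TTTCGCGC on the opposite strand at position -172, outside the bases printed. A match describes the letters and not a bound site, and no match says only that these letters are not in this window.

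All 5 genes around the BRCA1, PALB2 and BRCA2 axis fell in shNT hypoxia. BRCA1, a ubiquitin ligase and scaffold that starts recombination (GRCh37 chromosome 17, 41196312 to 41322262), was at 68.2 and 59.8 CPM in normoxia and 33.2 and 25.3 CPM in hypoxia in shNT libraries A and B. Both hypoxia libraries were below both normoxia libraries, and the log2 change was -1.13 ± 0.17 (adjusted p = 6.27e-05). In shCDK8 cells BRCA1 was at 41.2 and 47.9 and then 36.9 and 36.9 CPM, a change of -0.27 ± 0.16 that was not called, from a normoxia level already called lower than that of shNT (-0.52 ± 0.16, adjusted p = 0.0444). BARD1, the ring-finger partner of BRCA1, fell from 16.7 and 16.6 to 10.5 and 9.46 CPM in shNT and from 11.98 and 9.13 to 4.98 and 5.32 CPM in shTIP60. The shTIP60 libraries were below the shNT libraries at both oxygen levels, with log2 differences of -0.66 ± 0.18 (adjusted p = 0.0168) in normoxia and -0.96 ± 0.19 (adjusted p = 0.00186) in hypoxia. The normoxia call was lost without either shNT library or without shTIP60 library B, with adjusted p up to 0.200.

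BRIP1, the helicase that binds BRCA1 and is also a Fanconi protein, fell in all 4 lines. Its levels in normoxia and hypoxia were 41.8 and 41.1 and then 18.6 and 18.3 CPM in shNT, and 33.6 and 30.1 and then 9.40 and 9.25 CPM in shTIP60. In shCDK8 they were 45.6 and 43.7 and then 29.3 and 27.9 CPM, and in HIF1A-null cells 43.7 and 31.5 and then 13.8 and 18.3 CPM. Hypoxia libraries were below normoxia libraries in each line, with log2 changes of -1.17, -1.77, -0.64 and -1.22 in that order. PALB2, the bridge between BRCA1 and BRCA2 (chromosome 16, 23614481 to 23652642), fell in all 4 lines too. It went from 19.9 and 19.2 to 9.56 and 9.33 CPM in shNT and from 15.5 and 15.3 to 6.62 and 4.51 CPM in HIF1A-null cells, whose hypoxia libraries were below all other 14 libraries. The changes were -1.05 ± 0.18 and -1.47 ± 0.18 (adjusted p = 1.88e-05), and their difference of -0.42 ± 0.25 was not called (adjusted p = 0.272). BRCA2, which acts on resected DNA (chromosome 13, 32889223 to 32974405), fell from 33.4 and 27.5 to 18.6 and 17.1 CPM in shNT, a log2 change of -0.77 ± 0.16. In HIF1A-null hypoxia it stood at 10.4 and 12.99 CPM, below the shNT hypoxia libraries (log2 difference -0.61 ± 0.17, adjusted p = 0.00884), a call that did not hold when library A of either hypoxia group was left out (adjusted p up to 0.0855). None of these 5 genes had a called difference between the hypoxia responses of a line and shNT.

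Of the 5 paralog genes RAD51B, RAD51C, RAD51D, XRCC2 and XRCC3, 4 fell in shNT hypoxia and RAD51B rose. XRCC2, a subunit of a paralog complex of strand exchange (chromosome 7, 152341861 to 152373278), was at 17.95 and 18.1 CPM in shNT normoxia and 5.80 and 4.86 CPM in hypoxia. The groups did not overlap, and the change of -1.76 ± 0.20 (adjusted p = 6.47e-06) had the smallest adjusted p of the 36 genes in this comparison. XRCC2 went from 15.4 and 13.7 to 4.58 and 3.38 CPM in shTIP60, from 14.7 and 13.4 to 9.62 and 7.73 CPM in shCDK8 and from 16.5 and 12.02 to 7.14 and 8.28 CPM in HIF1A-null cells. Hypoxia libraries of shCDK8 and HIF1A-null cells were all above those of shNT, by 0.70 ± 0.20 (adjusted p = 0.0165) and 0.53 ± 0.20 (adjusted p = 0.0462). XRCC3, which pairs with RAD51C (chromosome 14, 104163946 to 104181841), fell from 74.2 and 72.4 to 23.1 and 17.2 CPM in shNT, the deepest loss of the 36 at -1.86 ± 0.25 (adjusted p = 3.07e-05). In HIF1A-null cells its normoxia libraries A and B were far apart at 90.3 and 47.01 CPM, above 42.8 and 34.3 CPM in hypoxia. The call there (-0.83 ± 0.24, adjusted p = 0.0132) was lost without normoxia library A or hypoxia library B, with adjusted p up to 0.281. Exons of XRCC3 overlap those of KLC1 on the opposite strand, and the strand setting of the counting is not given in the sources used here.

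RAD51C, a subunit of both paralog complexes, was at 52.97 and 44.3 CPM in shNT normoxia and 21.8 and 18.9 CPM in hypoxia. It fell in all 4 lines, with log2 changes of -1.26 ± 0.17 in shNT, -1.23 ± 0.17 in shTIP60, -0.84 ± 0.16 in shCDK8 and -0.52 ± 0.16 in HIF1A-null cells. The last differed from the first by 0.74 ± 0.23 (adjusted p = 0.0402). RAD51D, which links RAD51C to XRCC2, fell in shNT (-0.99 ± 0.19), shTIP60 (-0.87 ± 0.18) and HIF1A-null cells (-0.57 ± 0.19). In shCDK8 it went from 15.4 and 16.97 to 12.7 and 12.9 CPM without a call, and its shCDK8 hypoxia libraries were above those of shNT by 0.91 ± 0.19 (adjusted p = 0.00189). RAD51B, the paralog that pairs with RAD51C, moved the other way in shNT, from 4.25 and 5.13 to 6.24 and 7.84 CPM (0.58 ± 0.22, adjusted p = 0.0488). That call was narrow: it was lost without shNT normoxia library A or B, without hypoxia library B, with library totals alone and with only the groups compared.

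Of 3 accessory factors of strand pairing, RAD51AP1 and RAD54B fell in shNT hypoxia and RAD54L had no call. RAD51AP1, which stimulates strand pairing, was at 21.6 and 19.6 CPM in shNT normoxia and 11.2 and 13.3 CPM in hypoxia (-0.74 ± 0.18, adjusted p = 0.00368), against 22.2 and 17.4 and then 18.9 and 21.2 CPM in HIF1A-null cells. RAD54L, a motor protein that remodels DNA during strand pairing (chromosome 1, 46712133 to 46744152), was the only one of the 36 called higher with hypoxia in HIF1A-null cells. It stood at 43.3 and 20.2 CPM in HIF1A-null normoxia libraries A and B and at 65.3 and 59.1 CPM in hypoxia, where shNT went from 50.01 and 45.9 to 36.6 and 26.6 CPM. The HIF1A-null hypoxia libraries were the highest of all 16 for RAD54L and normoxia library B the lowest. The change was 0.97 ± 0.26 (adjusted p = 0.00801), lost without normoxia library B (adjusted p = 0.0723), and the response differed from that of shNT by 1.57 ± 0.37 (adjusted p = 0.00929). RAD54B, a related motor protein, had responses of -0.64 ± 0.16 in shNT and 0.15 ± 0.15 in HIF1A-null cells, a difference of 0.79 ± 0.22 (adjusted p = 0.0237). RAD54B was called lower in shTIP60 than in shNT in normoxia (-0.51 ± 0.16, adjusted p = 0.0312), a call lost when any 1 of the 4 libraries compared was left out. RAD54B and the gene FSBP share exons on the same strand, and LRRC41 overlaps RAD54L on the opposite strand.

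The Fanconi core complex, a ubiquitin ligase that acts at crosslinked forks, was lowered in part. In shNT, 5 of its 8 genes fell (FANCA, FANCB, FANCE, FANCG and FANCM), and FANCC, FANCF and FANCL had no call. FANCE, the subunit that contacts FANCD2, was at 31.01 and 26.9 CPM in normoxia and 12.3 and 8.96 CPM in hypoxia, a change of -1.44 ± 0.21 (adjusted p = 6.51e-05). FANCA, which stabilises the complex, fell from 158 and 162 to 99.2 and 69.7 CPM in shNT. In shCDK8 FANCA was at 168 and 147 CPM in normoxia and 166 and 149 CPM in hypoxia, libraries that overlapped, and in HIF1A-null cells at 169 and 106 and 142.4 and 127 CPM. The difference in response from shNT was 0.90 ± 0.27 (adjusted p = 0.0340) for HIF1A-null cells and 0.92 ± 0.27 without a call for shCDK8 (adjusted p = 0.222). FANCB, an X-linked core subunit, was at low levels of 7.42 and 7.45 CPM in shNT normoxia and 2.48 and 4.30 CPM in hypoxia. In HIF1A-null cells it went from 5.35 and 4.48 to 5.76 and 10.2 CPM, and its difference in response of 1.83 ± 0.41 (adjusted p = 0.00704) was the largest of the 36 genes.

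FANCF, an adaptor of the core complex encoded by a single exon, was the core gene with the deepest change in HIF1A-null cells. It fell there from 9.82 and 8.07 to 5.80 and 3.47 CPM (-0.95 ± 0.23, adjusted p = 0.00453), a call lost without hypoxia library B (adjusted p = 0.0766). FANCC, another core subunit, was at 32.3 and 31.1 CPM in shNT normoxia and 36.3 and 37.96 CPM in hypoxia, and no line called it with hypoxia. FANCC was nevertheless lower in shTIP60 than in shNT under hypoxia, at 21.6 and 23.9 CPM (-0.71 ± 0.15, adjusted p = 0.00344). FANCG, a scaffold of the complex at 91.6 and 78.3 CPM in shNT normoxia and 63.96 and 56.8 CPM in hypoxia, fell in shNT and shTIP60 with log2 changes of -0.49 ± 0.16 and -0.56 ± 0.16 and stood higher in hypoxia in shCDK8 (0.52 ± 0.16) and HIF1A-null cells (0.65 ± 0.16). FANCM, the translocase that recruits the complex, differed in response between HIF1A-null cells and shNT by 0.93 ± 0.24 (adjusted p = 0.0158). FANCL, the catalytic ubiquitin ligase subunit, ranged from 12.3 to 27.7 CPM over the 16 libraries with no call in any of the 13 comparisons. Exons of FANCA, FANCC, FANCF and FANCL overlap genes on the opposite strand (ZNF276, C9orf3, GAS2 and VRK2).

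FANCD2 and FANCI, the clamp that the core complex ubiquitylates, both fell in shNT and shTIP60. FANCD2 (chromosome 3, 10068054 to 10143616) was at 71.7 and 68.4 CPM in shNT normoxia and 48.9 and 49.9 CPM in hypoxia, and at 65.1 and 66.8 and 67.2 and 70.5 CPM in shCDK8. In HIF1A-null cells FANCD2 was at 66.00 and 54.5 CPM in normoxia and 71.1 and 79.4 CPM in hypoxia. The shNT change was -0.50 ± 0.12 (adjusted p = 0.00441), and the responses of HIF1A-null cells and shNT differed by 0.82 ± 0.18 (adjusted p = 0.00554). FANCI fell from 132 and 121 to 84.8 and 101 CPM in shNT (-0.44 ± 0.15, adjusted p = 0.0287) and from 96.8 and 90.6 to 59.8 and 52.9 CPM in shTIP60 (-0.73 ± 0.15, adjusted p = 0.00147), with shTIP60 hypoxia below shNT hypoxia at a log2 difference of -0.72 ± 0.15. FANCD2 has near-identical pseudogene copies, so its counts are uncertain. Exons of FANCD2 overlap C3orf24 and exons of FANCI overlap POLG, both on the opposite strand.

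BLM, the helicase that dissolves recombination intermediates, fell in shNT, shTIP60 and HIF1A-null cells. It was at 37.1 and 33.6 CPM in shNT normoxia and 13.2 and 16.9 CPM in hypoxia, and at 21.02 and 21.4 and then 8.63 and 8.06 CPM in shTIP60. The shTIP60 libraries were below shNT at both oxygen levels, with log2 differences of -0.74 ± 0.17 (adjusted p = 0.00556) in normoxia and -0.85 ± 0.18 (adjusted p = 0.00251) in hypoxia, and those of shCDK8 were above shNT in hypoxia by 0.87 ± 0.17 (adjusted p = 0.00145). RECQL4, a related helicase that also acts at replication origins, had no call in any of the 13 comparisons and was at 271 and 239 CPM in shNT normoxia and 225 and 128 CPM in hypoxia.

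Resection factors fell in shNT hypoxia while MRE11A and RAD50 of the end-binding complex had no call. RBBP8 encodes CtIP, the factor that starts resection (chromosome 18, 20378224 to 20606451). It was at 81.5 and 73.6 CPM in shNT normoxia and 33.2 and 35.5 CPM in hypoxia, and at 55.97 and 57.7 and then 25.6 and 26.5 CPM in shTIP60. In shCDK8 it stood at 129.6 and 173 CPM in normoxia and 102 and 107 CPM in hypoxia, above all other lines at both oxygen levels. In HIF1A-null cells it was at 59.4 and 49.1 and 54.1 and 67.7 CPM, which overlap. The shNT change was -1.18 ± 0.15 (adjusted p = 2.41e-05) and that of shCDK8 -0.53 ± 0.15 (adjusted p = 0.0165). RBBP8 was higher in shCDK8 than in shNT by 0.97 ± 0.15 (adjusted p = 0.000388) in normoxia and 1.61 ± 0.16 (adjusted p = 2.77e-06) in hypoxia, the largest difference between lines among the 36 genes. It was lower in HIF1A-null normoxia than in shNT (-0.51 ± 0.15, adjusted p = 0.0362) and higher in hypoxia (0.83 ± 0.15, adjusted p = 0.000506), and the difference in response of 1.34 ± 0.22 (adjusted p = 0.000816) had the smallest adjusted p of that comparison. RBBP8 and EXO1 were among the 5 genes whose calls in that comparison held without each single library in turn, with FANCD2, FANCB and RAD54L. Exons of RBBP8 overlap the microRNA gene MIR4741 on the same strand.

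EXO1, the exonuclease of long-range resection and mismatch repair (chromosome 1, 242011269 to 242058450), carries one of the E2F strings shown above. It fell from 49.9 and 42.3 to 17.5 and 15.3 CPM in shNT and from 37.2 and 32.8 to 13.5 and 10.1 CPM in shTIP60, log2 changes of -1.49 ± 0.22 and -1.57 ± 0.23. In shCDK8 the hypoxia libraries at 28.99 and 33.8 CPM were above those of shNT (0.93 ± 0.22, adjusted p = 0.00588), and in HIF1A-null cells they were at 36.03 and 36.9 CPM (1.15 ± 0.22, adjusted p = 0.000756). The HIF1A-null normoxia libraries were at 50.5 and 27.3 CPM, one above and one below that hypoxia level, and the difference in response from shNT was 1.39 ± 0.31 (adjusted p = 0.00709). MRE11A, RAD50 and NBN form the complex that first binds a broken end. MRE11A (now named MRE11), its nuclease, and RAD50, its bridging subunit, were not called with hypoxia in any line. MRE11A was at 18.3 and 21.4 CPM in shNT normoxia and 19.1 and 24.04 CPM in hypoxia, and RAD50 was at 70.4 and 71.3 CPM in shNT normoxia and 79.2 and 82.8 CPM in hypoxia. NBN, which connects the complex to ATM, fell in shNT from 73.3 and 70.02 to 39.99 and 41.01 CPM (-0.82 ± 0.12, adjusted p = 8.38e-05) and in shCDK8 from 63.3 and 69.9 to 42.8 and 39.1 CPM (-0.70 ± 0.12, adjusted p = 0.000779), the smallest adjusted p of the 36 genes there.

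**Figure D2:**
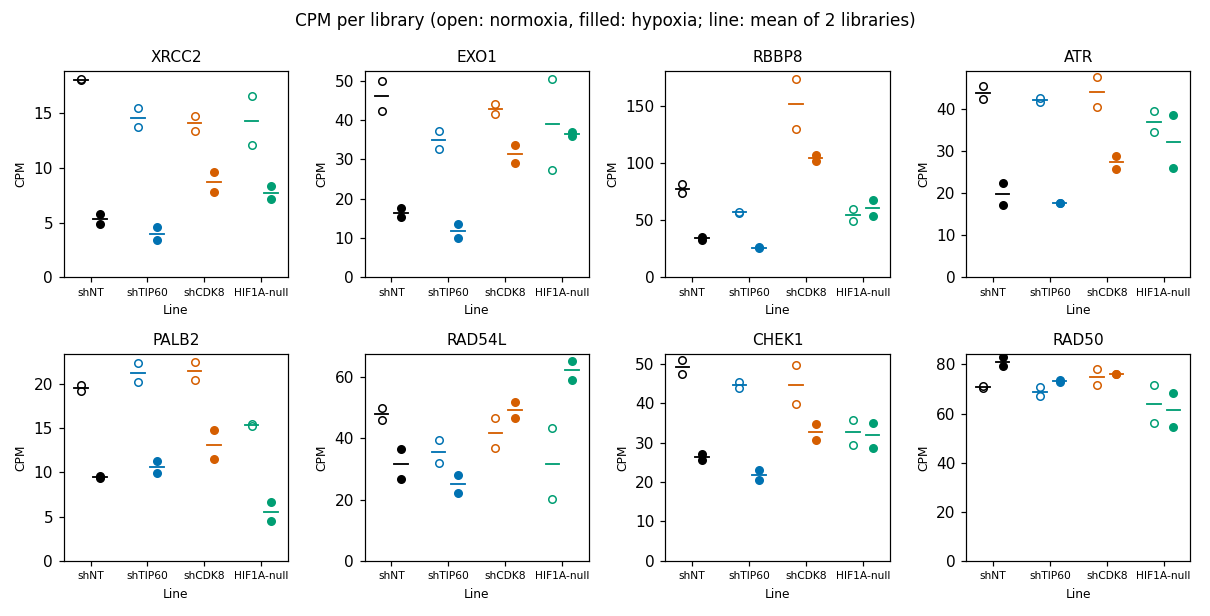
Level in CPM (vertical axis, from 0) of 8 repair genes in each library, by line (horizontal axis); open circles are normoxia, filled circles hypoxia, and lines the mean of 2 libraries. XRCC2 falls in all 4 lines, RBBP8 is highest in shCDK8, RAD54L is highest in HIF1A-null hypoxia, PALB2 is lowest there, and RAD50 shows no call with hypoxia.

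Of the checkpoint genes, ATR, CHEK1, CHEK2 and TOPBP1 fell in shNT hypoxia and ATM had no call. ATR, the kinase that senses stalled forks (chromosome 3, 142167849 to 142297575), was at 45.3 and 42.2 CPM in shNT normoxia and 17.2 and 22.4 CPM in hypoxia, a change of -1.14 ± 0.18 (adjusted p = 0.000108). It was at 40.5 and 47.5 and then 28.9 and 25.8 CPM in shCDK8 (-0.69 ± 0.17, adjusted p = 0.00901) and at 34.4 and 39.5 and then 26.1 and 38.4 CPM in HIF1A-null cells, where the groups overlapped. The responses of HIF1A-null cells and shNT differed by 0.95 ± 0.25 (adjusted p = 0.0167). CHEK1, the kinase that ATR activates, fell from 47.3 and 50.9 to 25.6 and 27.1 CPM in shNT (-0.90 ± 0.15, adjusted p = 0.000245) and in HIF1A-null cells was at 35.8 and 29.5 and 28.6 and 35.1 CPM, a normoxia level below that of shNT (-0.59 ± 0.15, adjusted p = 0.0163). The difference in response was 0.86 ± 0.21 (adjusted p = 0.0135). Exons of CHEK1 overlap STT3A on the same strand.

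ATM, the kinase activated by broken ends, was at 28.9 and 39.9 CPM in shNT normoxia and 39.02 and 55.6 CPM in hypoxia, which overlap. It rose in shTIP60 from 20.3 and 24.7 to 35.4 and 39.01 CPM (0.73 ± 0.27, adjusted p = 0.0422), a call lost when any 1 library of that comparison was left out and with library totals alone (adjusted p up to 0.233). CHEK2, the kinase downstream of ATM, was at 34.3 and 31.1 CPM in shNT normoxia and 23.6 and 23.2 CPM in hypoxia. It was lower in shTIP60 than in shNT in normoxia (-0.54 ± 0.14, adjusted p = 0.0130) and higher in shCDK8 (0.47 ± 0.14, adjusted p = 0.0193) and HIF1A-null cells (0.63 ± 0.14, adjusted p = 0.00204) in hypoxia. TOPBP1, the activator of ATR, fell in shNT and shTIP60 with log2 changes of -0.50 ± 0.14 and -0.60 ± 0.14 and had no call in shCDK8 (-0.15 ± 0.14). CHEK2 has near-identical pseudogene copies, so its counts are uncertain. Exons of ATM overlap C11orf65 on the opposite strand.

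MSH6, which recognises mismatches (chromosome 2, 47922669 to 48037202), fell in all 4 lines. It was at 86.8 and 81.7 CPM in shNT normoxia and 42.6 and 39.1 CPM in hypoxia, and at 65.2 and 64.3 and then 41.9 and 41.6 CPM in shCDK8. The changes were -1.04 ± 0.13 (adjusted p = 1.49e-05) in shNT, -0.91 ± 0.13 (adjusted p = 5.62e-05) in shTIP60, -0.63 ± 0.13 (adjusted p = 0.00229) in shCDK8 and -0.50 ± 0.13 (adjusted p = 0.00655) in HIF1A-null cells. The last call was lost without normoxia library A (adjusted p = 0.0797). No difference in MSH6 response between a line and shNT was called. Exons of MSH6 overlap FBXO11 on the opposite strand.

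Hypoxia in shTIP60 cells lowered nearly the same genes as in shNT. There, 27 of 36 fell and 1 rose (ATM), 28 called against 39.2% of all genes (19.8% lower), and 26 of the 27 genes that fell in shNT also fell in shTIP60. The median was -0.89, and the replication and S phase list went from 4018 to 4512 CPM to 1950 to 2060 CPM in sum. BRIP1 had the smallest adjusted p (-1.77 ± 0.17, adjusted p = 1.30e-06), followed by XRCC2, BLM, BRCA2, BRCA1, RAD51C, RBBP8 and ATR. No difference in response between shTIP60 and shNT was called among the 36 genes by edgeR, where 0.0322% of all genes were called. DESeq2 called 0 of the 36 as well. In edgeR 2 of the 36 had an unadjusted p under 0.05, a share near the 5.86% of all genes. They were BRIP1 at -0.60 ± 0.23 and BRCA2 at -0.51 ± 0.23. All comparisons with shNT share its libraries. The calls for FANCF, FANCG and ATM with hypoxia in shTIP60 ended without 1 or more single libraries, with adjusted p up to 0.161, 0.0719 and 0.233.

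In shCDK8 cells, 11 of the 36 genes fell with hypoxia and none rose, against 24.8% of all genes called (11% lower). They were BRIP1, PALB2, BRCA2, RAD51C, XRCC2, XRCC3, RBBP8, NBN, ATR, CHEK1 and MSH6, all of which also fell in shNT. The median over the 36 was -0.28, with XRCC3 lowest at -0.89 ± 0.24. No gene of the Fanconi core complex or the FANCD2 and FANCI pair was called in shCDK8, where their changes ran from -0.56 for FANCE to 0.07 for FANCC. The replication and S phase list went from 4224 to 4562 CPM to 3378 to 3478 CPM in sum, with 14 of 27 called lower. The part of that shift in the repair genes was not tested. Without single libraries the count of called repair genes ran from 3, without shCDK8 hypoxia library B, to 11, and was 6 without normoxia library B. The calls for NBN, RAD51C and MSH6 held without each of the 4 libraries in turn.

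The response differences of shCDK8 against shNT leaned positive, with no call in edgeR's test over all libraries. Of the 36, 31 had a positive difference, with a median of 0.45, and 25 had library differences that did not overlap, against 24.7% of all genes. EdgeR called 0 of them, where 0.0387% of all genes were called, while 16 had an unadjusted p under 0.05, against 10.9% of all genes. DESeq2 called 2 of the 36, with 215 called over all genes. The smallest adjusted p was that of XRCC2 (1.06 ± 0.28, adjusted p = 0.162), followed by BRCA1 (0.86 ± 0.23, adjusted p = 0.177) and FANCA (0.92 ± 0.27, adjusted p = 0.222). Without a filter on low counts edgeR called 7, and with the series of library numbers as a term 8, all of them positive.

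In the cells labelled HIF1A-null, most called losses lay on the BRCA1 axis and among the paralogs. With hypoxia 12 genes fell and RAD54L rose. The 13 called were a share near the 38% of all genes called, while 19.1% of all genes were called lower. Of the 12 that fell, 11 had also fallen in shNT. The exception was FANCF. The genes that fell were 4 of 5 on the BRCA1 axis, 4 of 5 paralogs, FANCE, FANCF, BLM and MSH6. None of the 5 resection and end-binding genes and none of the 5 checkpoint genes was called. The median over the 36 was -0.077, against -0.0023 over all genes, and lay at -0.30 between libraries A and 0.17 between libraries B. Without single libraries the count of called genes ran from 9 to 14, and its split moved with the library. Without normoxia library A, 4 rose and 5 fell with a median of 0.036, and without hypoxia library A, 5 rose and 9 fell. The split was 4 higher and 12 lower without a filter on low counts and 5 higher and 12 lower with the series of library numbers as a term. The calls for PALB2, BRIP1, BRCA2 and XRCC2 held without each of the 4 libraries in turn.

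**Figure D3:**
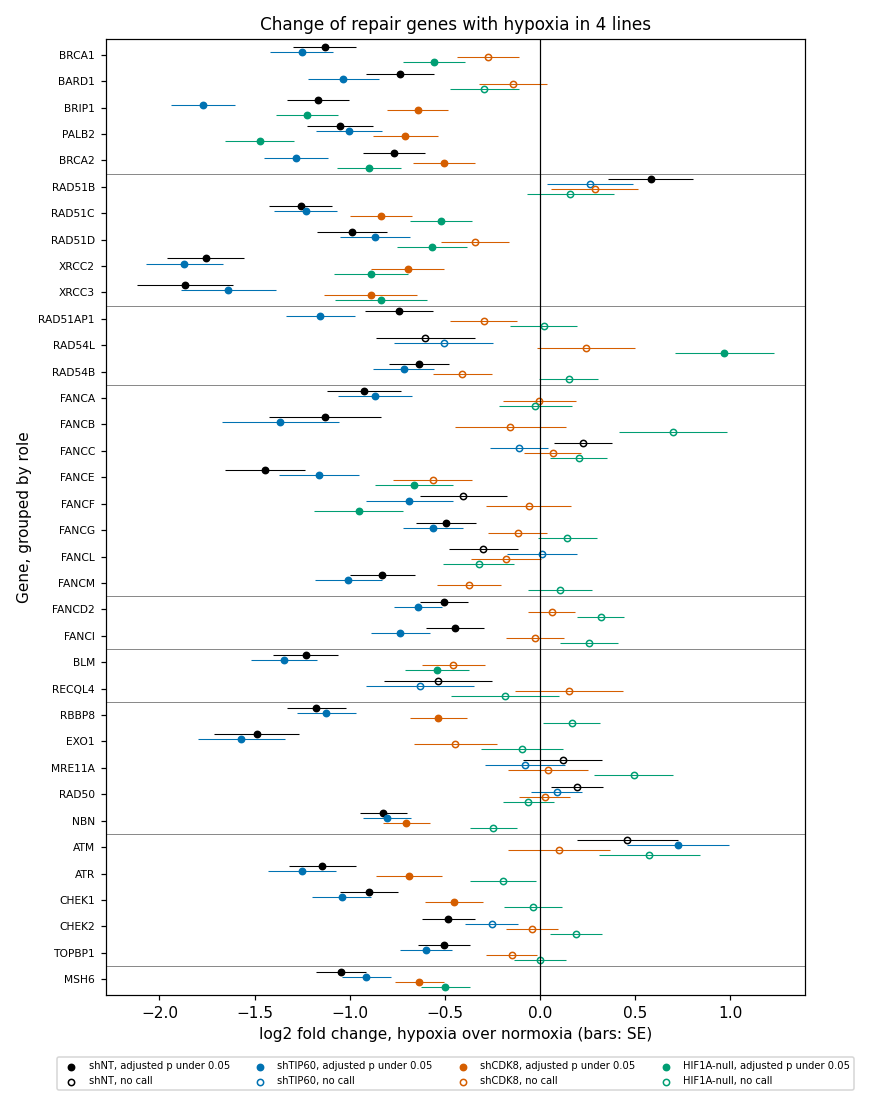
Log2 fold change of hypoxia over normoxia (horizontal axis, bars SE) of each repair gene (vertical axis, grouped by role) in 4 lines; filled points have an adjusted p under 0.05. Among the shNT points, XRCC2 and XRCC3 are the lowest at -1.76 and -1.86. Of the 27 genes called lower in shNT, 26 are also called lower in shTIP60. RAD54L in HIF1A-null cells is called to the right of 0 at 0.97.

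The test of the difference placed 16 repair genes above the shNT response in HIF1A-null cells and none below, against 16.4% of all genes called (7.53% higher). The 16 were RAD51C and XRCC2 of the paralogs, RAD51AP1, RAD54L and RAD54B, FANCA, FANCB and FANCM of the core complex, FANCD2 and FANCI, RBBP8, EXO1 and NBN, and ATR, CHEK1 and CHEK2. The library differences did not overlap in 24 of the 36 genes, the 16 called genes among them, against 39.9% of all genes. The median over the 36 was 0.65, against -0.016 over all genes. The median was 0.48 from libraries A and 0.85 from libraries B. None of BRCA1, BARD1, BRIP1, PALB2 and BRCA2 was called, with differences from -0.42 for PALB2 to 0.57 for BRCA1. DESeq2 called 20 of the 36, with 3023 called over all genes. The count was 5 without HIF1A-null hypoxia library B, 6 without shNT normoxia library A, 7 without HIF1A-null normoxia library B and 10 without either shNT normoxia library B or shNT hypoxia library A. It was 20 without HIF1A-null normoxia library A and 5 with only the groups compared. In these cells the replication and S phase list stood at 3148 CPM in normoxia library B and 5273 CPM in library A, and at 3606 to 3913 CPM in hypoxia. Of its 27 genes, 18 were called with a higher response than in shNT and none with a lower one, with a median of 0.91, and its part in the repair genes was not tested.

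**Figure D4:**
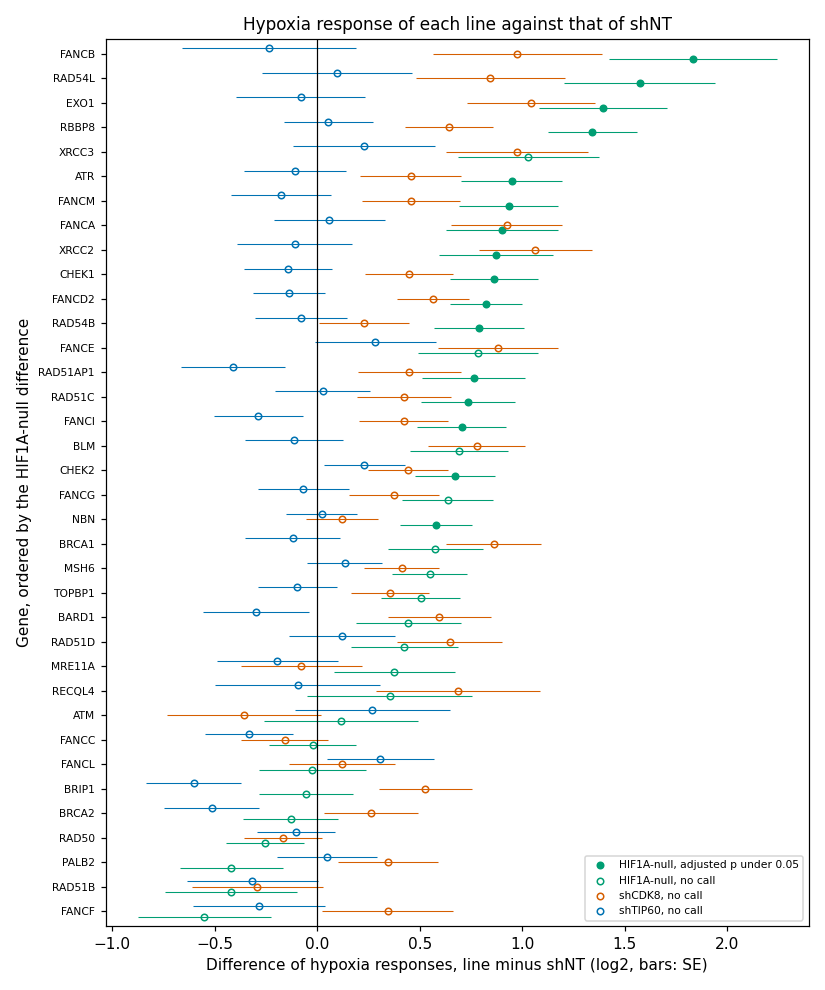
Hypoxia response of each altered line minus that of shNT (log2, horizontal axis, bars SE) for each repair gene (vertical axis, ordered by the HIF1A-null difference); filled points have an adjusted p under 0.05. HIF1A-null differences reach 1.83 for FANCB, shCDK8 differences are positive for 31 of 36 genes without a call, and shTIP60 differences have a median of -0.10.

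In normoxia 4, 2 and 2 of the 36 genes were called different from shNT in shTIP60, shCDK8 and HIF1A-null cells. In shTIP60, 4 were lower (BARD1, RAD54B, BLM and CHEK2) and none higher, against 18.4% of all genes called (8.13% lower), with a median of -0.30. Each of these 4 calls was lost without 1 or more single libraries, shNT library A among them. With only the groups compared 15 of the 36 were called, all lower, while the calls over all genes went from 2857 to 4830. In shCDK8, RBBP8 was higher and BRCA1 lower, against 13.1% of all genes (5.8% higher and 7.27% lower), and the BRCA1 call was lost when any 1 of the 4 libraries compared was left out. With library totals alone the split was 1 higher and 2 lower. In HIF1A-null cells RBBP8 and CHEK1 were lower, against 11.7% of all genes (5.86% lower). Both calls were lost without HIF1A-null library B, without either shNT library and with only the groups compared, and 7 genes were called, all lower, without HIF1A-null library A.

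In hypoxia 8, 15 and 20 of the 36 genes were called different from shNT in shTIP60, shCDK8 and HIF1A-null cells. Whether a line differed from shNT more in hypoxia than in normoxia is tested by the response differences above, which edgeR called for 0, 0 and 16 genes. In shTIP60, 8 genes were lower than in shNT (BRIP1, BARD1, BLM, FANCI, FANCC, BRCA2, RAD54B and FANCG) and none higher, a share of 22.2% that was near the 21.8% of all genes called (10.5% lower). In shCDK8, 15 were higher and none lower, against 27.9% of all genes (14.4% higher), led by RBBP8 and followed by BLM, RAD51D, FANCA, EXO1, BRIP1, FANCD2 and RAD51C. In HIF1A-null cells, 17 were higher and 3 lower (PALB2, BRCA2 and RAD50), against 41.1% of all genes (20.3% higher), and with library totals alone the split was 14 higher and 5 lower. RAD50 was at 54.5 and 68.2 CPM in HIF1A-null hypoxia against 79.2 and 82.8 CPM in shNT (-0.40 ± 0.14, adjusted p = 0.0265). Without single libraries the counts ran from 4 to 8 in shTIP60, from 5 to 13 in shCDK8 and from 11 to 16 in HIF1A-null cells, lowest without shTIP60 hypoxia library B in the first and without shNT hypoxia library B in the others. Calls held without each library in turn for BRIP1, BARD1 and BLM in shTIP60, for RBBP8, BLM and RAD51D in shCDK8, and for RBBP8, EXO1, FANCD2, CHEK2 and FANCG in HIF1A-null cells.

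Across the 4 lines the repair genes fell into few patterns. BRIP1, PALB2, BRCA2, RAD51C, XRCC2, XRCC3 and MSH6 fell in all 4. A set of 11 fell in shNT and shTIP60 and had no call in the other lines: BARD1, RAD51AP1, RAD54B, FANCA, FANCB, FANCG, FANCM, FANCD2, FANCI, EXO1 and TOPBP1. RBBP8, NBN, ATR and CHEK1 fell in shNT, shTIP60 and shCDK8, and BRCA1, RAD51D, FANCE and BLM in shNT, shTIP60 and HIF1A-null cells. FANCC, FANCL, RECQL4, MRE11A and RAD50 had no hypoxia call in any line. Of the remaining 5, CHEK2 fell in shNT alone, FANCF fell in shTIP60 and HIF1A-null cells, and RAD51B, ATM and RAD54L each rose in 1 line. A missing call in a line is not a test of a difference, and edgeR's test of the response difference over all libraries called 16 genes for HIF1A-null cells and 0 for each of the other lines. For shCDK8, DESeq2 called 2 and edgeR called 7 without a filter and 8 with the series term.

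Per kilobase of the canonical GENCODE transcript in shNT normoxia, RECQL4 had the highest level of the 36 at 66.8 CPM per kb. It was followed by FANCG at 33.2, FANCA at 29.4, XRCC3 at 28.6 and FANCI at 26.8 CPM per kb. The lowest were FANCB at 2.46, FANCM at 1.94 and RAD51D at 1.35 CPM per kb. BRCA1 at 9.03 CPM per kb stood above BRCA2 at 2.55 CPM per kb. These lengths come from another annotation than the one behind the counts, which is not given in the sources used here.

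Of 40 other recombination and Fanconi genes, 20 fell and 2 rose in shNT hypoxia, 55% called against 40.7% of all genes, with a median of -0.53. GEN1, a resolvase (-1.45 ± 0.17, adjusted p = 8.17e-06), and RPA2, a subunit of the protein that coats single-stranded DNA (-1.06 ± 0.13, adjusted p = 1.08e-05), had the smallest adjusted p of that list in shNT. In the HIF1A-null response difference 7 of the 40 were higher and 1 lower, a share of 20% that was near the 16.4% of all genes called. The smallest adjusted p were those of MCM8, a helicase of break repair (1.38 ± 0.20, adjusted p = 0.000462), and USP1, which removes ubiquitin from FANCD2 (1.36 ± 0.22, adjusted p = 0.000995). Of 19 other checkpoint genes, 11 fell and 1 rose in shNT (63.2% called), led by CLSPN, the adaptor claspin (-2.79 ± 0.29, adjusted p = 2.63e-06), TIPIN (-1.57 ± 0.16) and CDC25A, a phosphatase of cyclin-dependent kinases (-2.56 ± 0.29). In HIF1A-null cells 10 of the 19 had a higher response and none a lower one, against 7.53% of all genes called higher.

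Lists of regulators and targets of the S phase programme are set beside the repair genes here, and a link between them was not tested. Of 19 genes for E2F, RB and DREAM regulators, 12 fell and 2 rose in shNT hypoxia, 73.7% called against 40.7% of all genes, with a median of -0.68. E2F1, named here after its values were seen, fell in shNT with a log2 change of -1.88 ± 0.28. Its responses in shCDK8 and HIF1A-null cells differed from shNT by 1.36 ± 0.38, not called, and 1.46 ± 0.38 (adjusted p = 0.0166). E2F1 does not stand for the list, of which 2 genes rose in shNT. Among replication genes, CCNE2, cyclin E2, changed by -2.78 ± 0.24 in shNT, -2.06 ± 0.23 in shTIP60, -1.22 ± 0.21 in shCDK8 and -1.11 ± 0.22 in HIF1A-null cells, all called. The median of the replication list was -1.37, -1.27, -0.61 and -0.45 in these lines, and that of the 36 repair genes -0.80, -0.89, -0.28 and -0.077. Mitosis genes had medians of -0.24, -0.51, -0.10 and 0.26, with 13 of 20 lower in shTIP60, against 19.8% of all genes. In HIF1A-null cells 6 of the 20 were higher and 1 lower, 35% called against 38% of all genes.

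**Figure D5:**
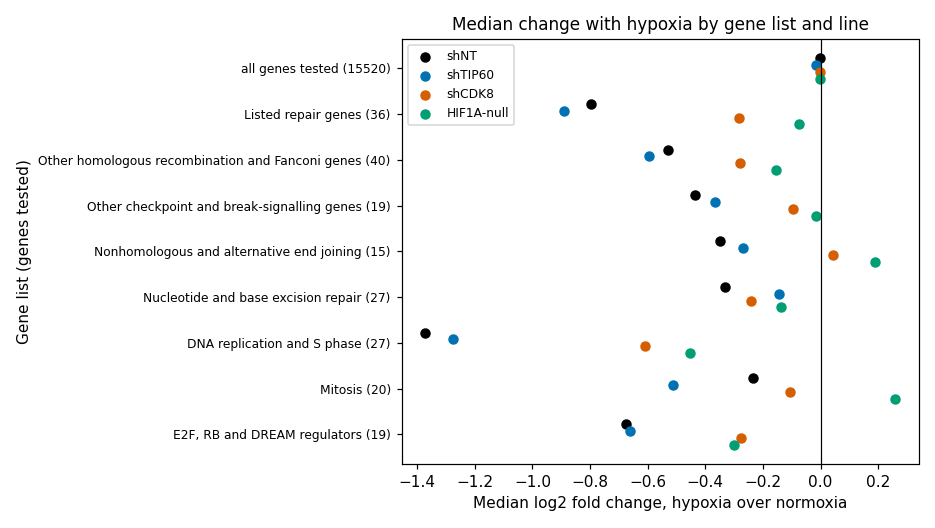
Median log2 fold change of hypoxia over normoxia (horizontal axis) for all genes tested and for each gene list (vertical axis, with the number of genes), 1 point per line. The replication and S phase list lies lowest at -1.37 in shNT, the 36 repair genes at -0.80, and all genes tested near 0 in each line.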

How the data were processed

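Poly(A) RNA was sequenced on an Ion Torrent instrument, per the labels' protocols. The deposited table holds raw read counts per gene for 16 libraries, 2 per group. Alignment and counting tools (GSNAP and HTSeq 0.5.4p5), the hg19 build, R 3.0.3 and DESeq 1.14.0 are listed, per the submitters' processing notes; the gene annotation and the strand setting are not given in the sources used here. If strand was not used, reads from overlapping exons on opposite strands cannot be told apart, so counts of such genes are uncertain.

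The deposited counts of all 16 libraries were fitted with edgeR 4.0.16 (R 4.3.3, limma 3.58.1): a filter on low counts by group (at least 10 counts, 15 in total), trimmed mean of M-values scaling, 1 coefficient per group, robust quasi-likelihood tests and Benjamini-Hochberg adjustment at 0.05 over 15520 genes. The spread rests on 8 residual degrees of freedom. CPM values and log2 fold changes were computed from these counts. The fit was tested on simulated data. Comparisons were hypoxia against normoxia in each line, each altered line against shNT at each oxygen level, and the differences between hypoxia responses, 13 in all. Alternatives were DESeq2 1.42.0, other scalings and filters (among them a mean of at least 5 CPM), only the groups compared, each library left out and, chosen after seeing the data, the series of library numbers as a term. Intervals of counting error are not given, since the replicates carry the error.

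The 36 genes and all other gene lists were chosen with earlier results of these data known. Named genes were all 36 genes where their values bear on a result, per comparison up to 8 called genes with the smallest adjusted p and each called gene that moved against the majority, up to 4 per role, up to 4 called genes of each other list with the smallest adjusted p, and the targeted genes. E2F1 and the marker genes were named as well, after their values were seen. Some genes are not reported here. Replicates are labelled as independent biological replicates.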

Additional observations from a re-analysis of the deposited data

Results flagged for a closer look

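The hypoxia responses of HIF1A-null cells and shNT cells differed by the test of the difference itself (edgeR's quasi-likelihood test, adjusted over all genes tested) for 16 of the 36 repair genes. Each difference is the HIF1A-null log2 fold change minus that of shNT, and all 16 were positive. Among paralogs and accessory factors it was 0.74 for RAD51C, 0.87 for XRCC2, 0.76 for RAD51AP1, 1.57 for RAD54L and 0.79 for RAD54B. Among Fanconi genes it was 0.90 for FANCA, 1.83 for FANCB, 0.93 for FANCM, 0.82 for FANCD2 and 0.70 for FANCI. Among resection and checkpoint genes it was 1.34 for RBBP8, 1.39 for EXO1, 0.58 for NBN, 0.95 for ATR, 0.86 for CHEK1 and 0.67 for CHEK2. The calls for RBBP8, FANCD2, FANCB, EXO1 and RAD54L held without each single library, and the other 11 were lost without 1 or more.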

How the results depend on the processing

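No paired analysis was possible because the columns carry no replicate numbers, and no label ties the series of library numbers to a shared batch or day. Deviations from the group means of libraries in the same series correlated at 0.073 to 0.50 (median 0.21), and a fit with that series as a term is given here only as an added alternative. The counts of called repair genes stayed within 1.5 times under DESeq2, other size factors and a mean of at least 5 CPM, except that DESeq2 called 2 for the shCDK8 response difference, and no result reversed. With library totals alone 18 were called with hypoxia in shCDK8 and 5 for HIF1A-null against shNT in normoxia; the all-gene median then lay at -0.20, -0.23, -0.16 and -0.28 for hypoxia in shNT, shTIP60, shCDK8 and HIF1A-null cells. Without a filter the counts were 8 for shTIP60 and 4 for HIF1A-null cells against shNT in normoxia, and 7 for the shCDK8 response difference. With the series of library numbers as a term, chosen after seeing the data, they were 11, 7 and 8 in that order, 13 for shTIP60 and 23 for shCDK8 against shNT in hypoxia. With only the groups compared they were 7 for hypoxia in HIF1A-null cells, 15 for shTIP60 and 0 for HIF1A-null cells against shNT in normoxia, 13 for HIF1A-null cells against shNT in hypoxia and 5 for the HIF1A-null response difference. Over all genes, shTIP60 against shNT in normoxia had 2857 calls in the main fit. It had 4287 with the series term and 4830 with only the groups compared. The causes were not tested.

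Leaving out single libraries gave 23 to 26 for hypoxia in shNT, 25 to 26 in shTIP60, 3 to 11 in shCDK8 and 9 to 14 in HIF1A-null cells. Against shNT it gave 0 to 2, 1 to 1 and 0 to 7 for shTIP60, shCDK8 and HIF1A-null cells in normoxia, and 4 to 8, 5 to 13 and 11 to 16 in hypoxia. The response differences gave 0, 0 and 5 to 20. With 1 library left in a group, it is assumed to vary like the others. Of single calls, 201 of the leave-one-out tests fell short of the threshold and 451 did not. With 2 libraries per group, a missing call does not show that a gene did not change.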

Other observations

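Of 27 nucleotide and base excision repair genes, 11 fell and 4 rose in shNT hypoxia, 55.6% called against 40.7% of all genes (20% lower). UNG, which removes uracil from DNA, changed by -1.44 ± 0.17 (adjusted p = 8.74e-06) and the damage-binding gene DDB2 by 0.86 ± 0.11 on the log2 scale, adjusted as above with edgeR. ERCC5, an endonuclease of nucleotide excision repair, rose by 1.46 ± 0.22. NEIL1, a DNA glycosylase, rose by 1.18 ± 0.16 in shNT, 1.34 ± 0.16 in shTIP60 and 0.98 ± 0.16 in shCDK8, and had no call in HIF1A-null cells (-0.16 ± 0.17), where its response differed from that of shNT by -1.34 ± 0.23 (adjusted p = 0.00139). Of 6 other mismatch repair genes, 3 fell and 1 rose in shNT, with a median of -0.42, and their summed level went from 173 to 180 CPM to 106 CPM in both hypoxia libraries. PMS1 fell by 0.93 ± 0.19 on the log2 scale. MLH3, a mismatch repair gene of meiotic recombination, was the gene that rose, by 0.76 ± 0.18, and had a response difference of -1.23 ± 0.27 (adjusted p = 0.00642) in HIF1A-null cells.

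Of 15 end joining genes, 7 fell and 1 rose in shNT hypoxia, 53.3% called against 40.7% of all genes, with a median of -0.35. XRCC5, a subunit of the Ku heterodimer, changed by -0.62 ± 0.13, PARP1, a sensor of breaks, by -0.67 ± 0.15 and the polymerase gene POLL, which rose, by 0.54 ± 0.13. In HIF1A-null cells 3 of the 15 rose and 2 fell, 33.3% called, below the 38% of all genes. In the response difference from shNT 6 were higher and 1 lower, 46.7% called against 16.4% of all genes, with a median of 0.58.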
